A study of Mus musculus with 16 samples.

Results

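The 10 heat shock chaperone genes described here are Hspa1a, Hspa1b, Hsph1, Dnajb1 and Hspb1, called inducible below, and Hspa8, Hsp90aa1, Dnaja1, Hspd1 and Hspe1, called constitutive. They were chosen by name from the 38003 genes of a single-cell RNA count matrix of mouse lung, and all 10 were found in it. They held 339609 of the 271140315 counted transcripts, 92407 of them from the inducible and 247202 from the constitutive members. Mice received vehicle, 6-OHDA, a toxin taken up by and destructive to sympathetic nerve endings, or BIBO3304, which blocks the neuropeptide Y receptor NPY1R. Each treatment was given without and with seeded PDAC (pancreatic ductal adenocarcinoma) cells. The lungs were digested with warm enzymes, live cells were sorted, and 80449 cells of 22 annotated types came from 15 samples. The groups were vehicle, 6-OHDA and BIBO3304 with 3 samples each, and vehicle-PDAC, 6-OHDA-PDAC and BIBO3304-PDAC with 2 samples each. Group names come from the deposited table of cells, where a mark for injection was read as PDAC seeding because 308 of the 312 annotated cancer cells lie in the marked samples. Vehicle-PDAC 2 held 0 cancer cells, and vehicle held 4. The labels used here leave out strain, age, dose, the timing of treatment and seeding, and the PDAC line. They also do not say whether a numbered sample is 1 mouse, so every p-value refers to the spread between these samples, which may in part be technical.

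Chaperones bind unfolded or newly made proteins and help them to fold. In the heat shock response, misfolded proteins release the transcription factor HSF1, which binds heat shock elements (inverted repeats of nGAAn units) in the promoters of chaperone genes. HSPA1A and HSPA1B are the stress-induced HSP70 proteins, HSPH1 is the HSP110 that exchanges their nucleotide, DNAJB1 and DNAJA1 are HSP40 cochaperones, and HSPB1 is a small heat shock protein that holds unfolded proteins. HSPA8 is the HSP70 and HSP90AA1 an HSP90 of unstressed cells, although Hsp90aa1 is itself raised by stress. HSPD1 and HSPE1 are the HSP60 and HSP10 of the mitochondrial folding chamber. Cells freed from tissue by digestion are known to switch on heat shock genes and immediate early genes during the procedure.

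The promoters of the members whose levels varied most between samples, and of the paired mitochondrial genes, show what they share outside the counts. The 250 bases before the annotated start are printed 5′ to 3′ on the gene's strand, from RefSeq on build GRCm38.p6, which is older than the mm39 build named in the submitters' processing notes. Capitals mark matches to a heat shock element of 2 units, GAANNTTC or TTCNNGAA, and each of these motifs reads the same on both strands. Hspa1a is at chr17:34972157-34972406 and Hspa1b at chr17:34959239-34959488 (both minus strand), Hsph1 at chr5:149636337-149636586 (minus strand) and Hspb1 at chr5:135887669-135887918 (plus strand). The last line is the 150 bases at chr1:55087998-55088147 (plus strand), which lie before the start of Hspe1 and, read in reverse, before a start of Hspd1.
Hspa1a: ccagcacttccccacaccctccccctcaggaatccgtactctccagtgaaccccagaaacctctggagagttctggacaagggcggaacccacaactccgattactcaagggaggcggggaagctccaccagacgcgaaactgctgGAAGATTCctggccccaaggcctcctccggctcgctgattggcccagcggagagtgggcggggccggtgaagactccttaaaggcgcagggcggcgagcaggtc
Hspa1b: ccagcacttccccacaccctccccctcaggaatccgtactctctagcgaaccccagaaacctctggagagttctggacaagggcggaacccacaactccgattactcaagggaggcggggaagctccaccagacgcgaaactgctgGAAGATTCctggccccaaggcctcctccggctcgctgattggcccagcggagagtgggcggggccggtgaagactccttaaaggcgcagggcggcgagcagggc
Hsph1: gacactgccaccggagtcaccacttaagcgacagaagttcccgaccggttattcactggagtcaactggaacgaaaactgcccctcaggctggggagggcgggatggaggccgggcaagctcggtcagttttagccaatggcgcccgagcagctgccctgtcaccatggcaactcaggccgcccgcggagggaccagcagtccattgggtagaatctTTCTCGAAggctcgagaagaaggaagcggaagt
Hspb1: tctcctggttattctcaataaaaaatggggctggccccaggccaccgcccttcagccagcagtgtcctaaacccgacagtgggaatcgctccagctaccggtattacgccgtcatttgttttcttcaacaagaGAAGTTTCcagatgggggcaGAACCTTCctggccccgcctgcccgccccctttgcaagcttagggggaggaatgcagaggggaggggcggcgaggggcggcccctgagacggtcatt
Hspd1-Hspe1: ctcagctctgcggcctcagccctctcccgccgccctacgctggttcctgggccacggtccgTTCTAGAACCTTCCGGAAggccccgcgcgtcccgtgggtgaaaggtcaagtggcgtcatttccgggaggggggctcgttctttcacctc
The Hspa1a and Hspa1b windows were equal at 247 of 250 bases (98.8%), and each held 1 match, 97 to 104 bases before the start. The Hsph1 match lay 26 to 33 bases before the start, and Hspb1 had 2 matches, 90 to 117 bases before it. The stretch between Hspd1 and Hspe1 held overlapping matches that together make a run of 4 alternating units, 72 to 89 bases before the Hspe1 start, so that both genes are counted through the same bases. RefSeq entries were found for 8 of the 10 members. A match of 2 units was present before at least 1 annotated start in 7 of these 8, against 14.6% of 27018 genes with windows of the same length. A run of at least 3 units was present in 2 of the 8 members, against 0.514% of all genes. Dnaja1 had 1 match before 1 of its 3 starts, and Dnajb1 had none in its windows. A match describes letters in a window and does not show binding.

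Near-identical copies limit how far single members can be told apart. Of the 50-base stretches in annotated transcripts (GENCODE vM21), 58.8% of those of Hspa1a also occur in Hspa1b, and 62.3% of those of Hspa1b in Hspa1a. The sum of Hspa1a and Hspa1b is therefore given beside the single values. Other genes, pseudogenes among them, share 48.8% of such stretches of Hspb1, 47.5% of Hsp90aa1, 39.7% of Hspd1, 38.6% of Hspa8, 18.4% of Hspe1 and 11.9% of Dnaja1, so that their levels depend on how the authors assigned shared reads. Hsph1 shared none and Dnajb1 0.38%. Levels are given as CPM, counts scaled to the same number of transcripts for each sample or for 1 cell type in it. Unless stated otherwise, the totals cover only the genes that passed a filter on low counts in that type. Fewer genes can pass in rare types, which raises their CPM, so levels of different types are not on quite the same scale. CPM are also not scaled by gene length, and are compared within a gene only.

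The inducible members differed many times over between samples, also between samples of 1 group. Summed over all cells of a sample, Hspa1a and Hspa1b together stood at 33.2, 17.7 and 133 CPM in vehicle 1, 2 and 3. They stood at 184, 45.3 and 512 CPM in 6-OHDA 1, 2 and 3 and at 55.9, 227 and 244 CPM in BIBO3304 1, 2 and 3. With PDAC cells they stood at 11.7 and 16.7 CPM under vehicle, 182 and 245 CPM under 6-OHDA and 139.8 and 106 CPM under BIBO3304. 6-OHDA 3 was thus the highest of the 15 samples and both vehicle-PDAC samples the lowest, while vehicle 3 was above 6-OHDA 2 and BIBO3304 1. In such sums, fewer cells of a type and less RNA per cell cannot be told apart.

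Hsph1 had a similar order, at 36.5, 26.2 and 88.5 CPM in the vehicle samples, 132, 51.8 and 323 CPM in the 6-OHDA samples and 68.4, 263 and 189.6 CPM in the BIBO3304 samples. With PDAC cells it stood at 29.4 and 23.9 CPM under vehicle, 136 and 183 CPM under 6-OHDA and 114 and 67.3 CPM under BIBO3304. Dnajb1 ran from 28.2 CPM in vehicle 2 to 169.8 CPM in 6-OHDA 3, and Hspb1 from 3.19 CPM in vehicle-PDAC 2 to 33.7 CPM in BIBO3304 2. The highest sample exceeded the lowest 55.4-fold for Hspa1b, 27.8-fold for Hspa1a, 13.5-fold for Hsph1, 10.6-fold for Hspb1 and 6.02-fold for Dnajb1. The HSP70 genes and their exchange factor therefore had the widest ranges of the inducible members. These are ranges of measured levels and were not tested.

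The constitutive members had narrower ranges. The highest sample exceeded the lowest 3.69-fold for Hspa8, 3.37-fold for Dnaja1, 3.03-fold for Hspd1, 3.01-fold for Hspe1 and 2.22-fold for Hsp90aa1. Hspa8 stood at 402, 369 and 635 CPM in vehicle, 528, 452 and 855 CPM in 6-OHDA, 400.3, 396 and 586 CPM in BIBO3304, 239 and 382 CPM in vehicle-PDAC, 594 and 778 CPM in 6-OHDA-PDAC and 883 and 664 CPM in BIBO3304-PDAC. Dnaja1 was lowest in vehicle-PDAC, at 78.2 and 78.6 CPM, and highest in 6-OHDA 3, at 264 CPM. The mitochondrial Hspd1 had another order: both 6-OHDA-PDAC samples (123 and 111 CPM) and both BIBO3304-PDAC samples (87.7 and 101 CPM) were above every sample without PDAC cells, the highest of which was 6-OHDA 3 at 86.8 CPM. Hspe1 stood at 39.9 and 37.1 CPM in 6-OHDA-PDAC and 38.9 and 52.0 CPM in BIBO3304-PDAC, against 17.2 to 47.3 CPM without PDAC cells. These sums include annotated cancer cells, 75 and 71 in 6-OHDA-PDAC and 33 and 73 in BIBO3304-PDAC, which held Hspd1 at 329.6 to 419 CPM and Hspe1 at 106 to 161 CPM. Without the cancer cells, an alternative chosen after seeing the data, Hspd1 stood at 72.9 and 68.8 CPM in 6-OHDA-PDAC and 71.8 and 77.7 CPM in BIBO3304-PDAC, below the 86.1 CPM of 6-OHDA 3, and Hspe1 at 27.96 and 27.8 CPM and 34.1 and 40.8 CPM.

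**Figure D1:**
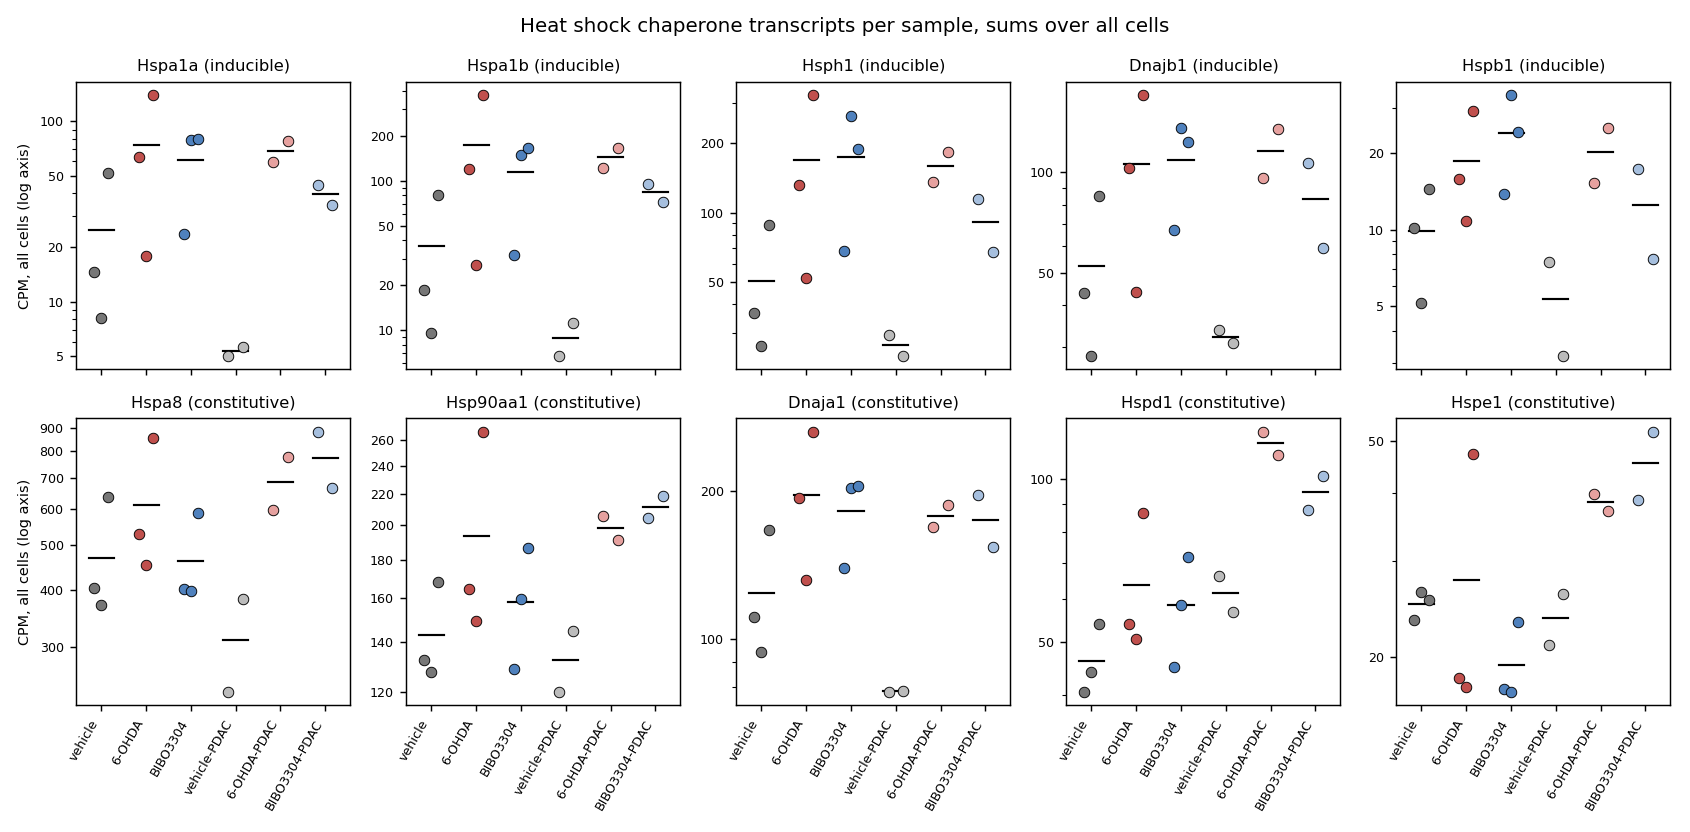
Level of each member in CPM (log axis, a separate range for each gene) over all cells of a sample, 1 point per sample, by group, with a bar at the group mean. The 5 inducible members are in the upper row, where both vehicle-PDAC points lie at or near the bottom and 6-OHDA 3 is the highest point in all but Hspb1; among the constitutive members of the lower row, whose sums include cancer cells, Hspd1 is highest in the 6-OHDA-PDAC samples and Hspe1 in a BIBO3304-PDAC sample.

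The balance of inducible to constitutive members was computed as the ratio of their summed CPM, with no test since the members were chosen with earlier results known. It averaged 0.199 ± 0.0969 (SD, n = 3) in vehicle, 0.441 ± 0.246 (n = 3) in 6-OHDA and 0.538 ± 0.255 (n = 3) in BIBO3304. With PDAC cells it averaged 0.132 ± 0.0342 (n = 2) in vehicle, 0.415 ± 0.0505 (n = 2) in 6-OHDA and 0.235 ± 0.0469 (n = 2) in BIBO3304. The lowest sample was vehicle-PDAC 2 at 0.108 and the highest BIBO3304 2 at 0.791, where the inducible sum was 659.7 CPM and the constitutive sum 835 CPM.

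The samples at the top and bottom of the inducible sum were largely shared between cell types. Counts were summed per sample and annotated type, and 19 types had at least 20 cells in enough samples. The inducible sum was highest in 6-OHDA 3 in 18 of these 19 types, and in BIBO3304 3 in the remaining type, interstitial macrophages. The lowest sample was vehicle 2 or a vehicle-PDAC sample in 19 of 19 types, and these 3 samples were together the 3 lowest in 10 types. Within vehicle, vehicle 3 was the highest in 19 types, and within 6-OHDA, 6-OHDA 2 was the lowest in 18. The highest sample exceeded the lowest by a median of 12.9-fold over types, from 4.25-fold in peribronchial fibroblasts to 51.9-fold in lymphatic endothelial cells. For the constitutive sum the median was 3.35-fold, from 2.79-fold to 4.50-fold. That sum was highest in 6-OHDA 3 in 12 types, and vehicle 2 and the vehicle-PDAC samples were together the 3 lowest in 8.

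Examples from distant lineages show how wide the sharing was. In alveolar fibroblasts, the inducible sum was 312, 163 and 884 CPM in vehicle, 1267, 271 and 2313 CPM in 6-OHDA and 466, 1756 and 1192 CPM in BIBO3304. In the same order it was 47.0, 47.8 and 90.5 CPM, 80.95, 64.2 and 311 CPM, and 70.4, 149.9 and 169 CPM in alveolar macrophages. In general capillary cells, an endothelial type, it was 76.8, 82.6 and 301 CPM, 201, 96.4 and 1468 CPM, and 117, 727 and 521 CPM. Alveolar macrophages were below alveolar fibroblasts in each of these 9 samples, yet 6-OHDA 3 and vehicle 3 led their groups in all 3 types.

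**Figure D2:**
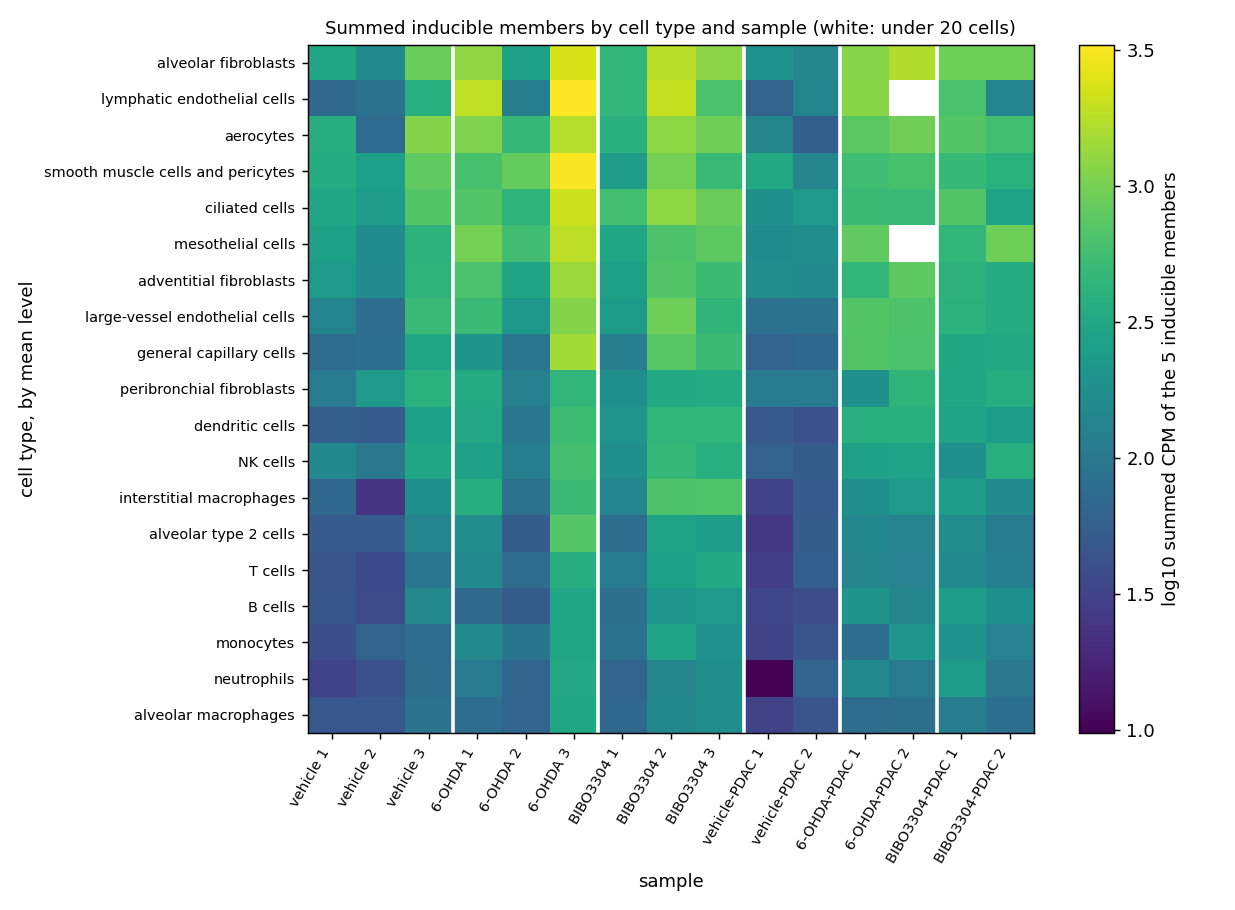
Summed level of the 5 inducible members (log10 of CPM, colour) in each of 19 cell types (vertical, ordered by mean level) and each of 15 samples (horizontal, white lines between groups). White cells had under 20 cells. The columns of 6-OHDA 3 (highest in 18 of 19 types) and of vehicle 2 and the vehicle-PDAC samples stand out across types. Vehicle 2 or a vehicle-PDAC sample is lowest in 19 of 19 types, and these samples are together the 3 lowest in 10.

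The technical units of each sample were compared in the same way. The cells of each sample had been spread over 16 sublibraries, and the inducible sum (CPM without further scaling) ran from 918 to 1259 over the sublibraries of 6-OHDA 3, from 108 to 241 over those of 6-OHDA 2 and from 46.2 to 69.6 over those of vehicle-PDAC 2. Over the 4 to 6 first-round barcode wells of a sample, the sum ran from 476 to 1419.55 in 6-OHDA 3 and from 229 to 519.6 in vehicle 3. In vehicle 2 it ran from 57.4 to 89.98 over wells and from 45.1 to 88.9 over sublibraries. The SD over wells was above that over sublibraries in every sample but vehicle 2 (12.7 over wells and 13.8 over sublibraries). No well of 6-OHDA 3 came down to any well of 6-OHDA 2, where the wells reached 206. Sublibraries and wells were not counted as replicates.

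Wells of 1 sample also differed by their place on the plate. All 15 samples had wells both in plate lines A to E and in lines F to H, a split made after seeing the data. The inducible sum was lower in the wells of the later lines in 12 of 15 samples, and the constitutive sum also in 12. In 5 samples, 6-OHDA 1, 2 and 3, BIBO3304 1 and vehicle-PDAC 1, every later well was below every earlier one. The 1 later well of 6-OHDA 3 stood at 476 CPM, against 1338 CPM over its 3 earlier wells. In 6-OHDA-PDAC 1 the order was the other way, at 528 CPM in later and 385 CPM in earlier wells. The mean inducible sum was 222 ± 183 CPM in vehicle and 702 ± 586 CPM in 6-OHDA over earlier wells, and 146 ± 110 CPM and 306 ± 190 CPM over later ones (SD, n = 3 each). With PDAC cells it was 73.9 ± 33.2 CPM in vehicle and 548 ± 231 CPM in 6-OHDA over earlier wells, and 74.6 ± 1.84 CPM and 575 ± 66.2 CPM over later ones (n = 2 each). Of the earlier wells, those of 6-OHDA lay in line B and those of 6-OHDA-PDAC in C. Those of vehicle lay in D and E, and those of vehicle-PDAC in E. Later wells lay in F and G for 6-OHDA, G and H for 6-OHDA-PDAC, and F and H for both vehicle groups. Between the 6-OHDA and vehicle groups, line and treatment thus cannot be told apart in the earlier wells, and the lines overlap only in part in the later ones. Earlier wells of BIBO3304 lay in C and D and those of BIBO3304-PDAC in D, a line shared with vehicle 1. In line D the inducible sum was 168 CPM in vehicle 1, 505 CPM in BIBO3304 3, and 327 and 249 CPM in BIBO3304-PDAC. Later wells lay in G for BIBO3304 and in G and H for BIBO3304-PDAC. The labels used here do not say how the wells were loaded, and the part of the plate position in the levels was not tested.

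**Figure D3:**
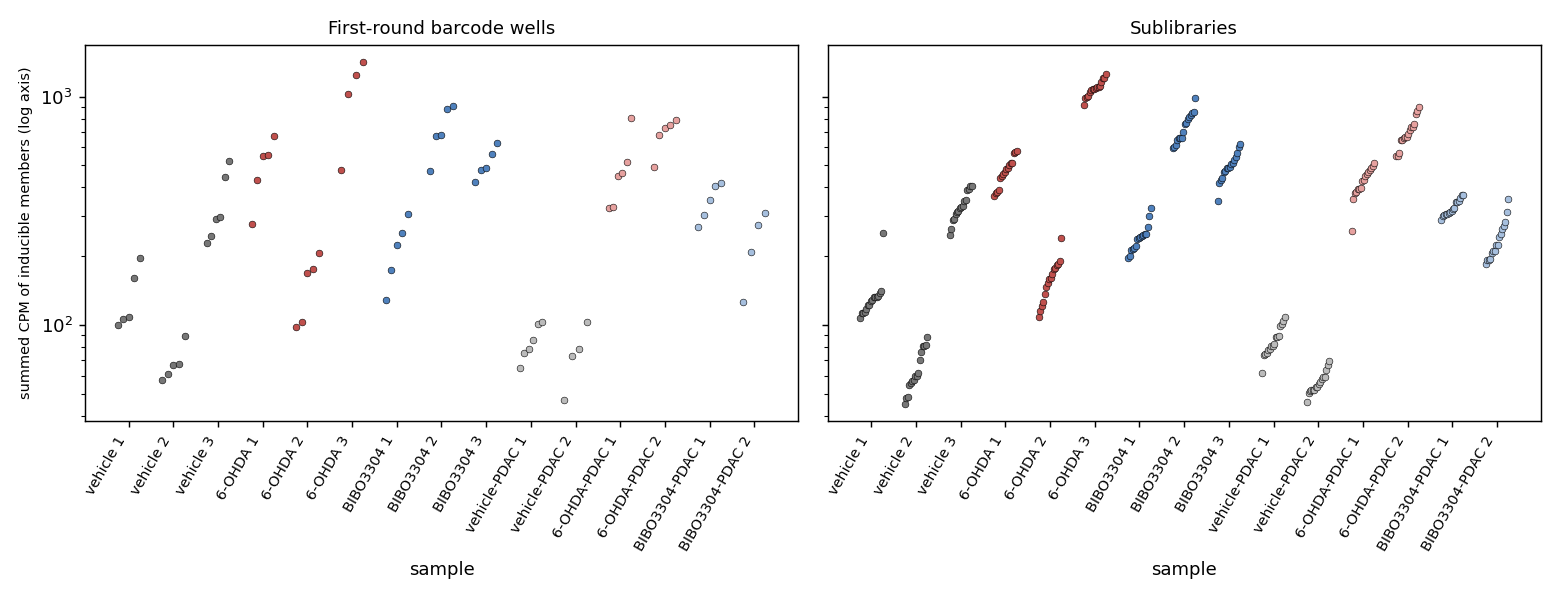
Summed level of the inducible members (CPM, log axis) in each first-round barcode well (left) and each sublibrary (right) of the 15 samples, drawn in ascending order within a sample. Sublibraries of 1 sample lie close together, from 46.2 to 69.6 in vehicle-PDAC 2 up to 918 to 1259 in 6-OHDA 3. By SD, wells spread more widely than sublibraries in every sample but vehicle 2, as in 6-OHDA 3 from 476 to 1419.55.

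Other properties of the samples moved with group as well. Alveolar macrophages, the most frequent type with a low inducible level, made up 35.5% to 42.5% of cells in vehicle and 30.8% to 44.5% in vehicle-PDAC, against 13.6% to 24.5% in the 6-OHDA and 6-OHDA-PDAC samples, 16.1% to 19.9% in BIBO3304 and 31.3% in both BIBO3304-PDAC samples. The samples held 10003796 to 32580698 transcripts, with a median of 1623 to 4846.5 per cell, highest in BIBO3304 2. The median percent of mitochondrially encoded transcripts ran from 0.924 to 1.99 and was highest in vehicle 1. The part of these properties in the levels was not tested, and levels within a type are computed apart from how many cells of other types there were. Of 92 type markers, 80 were highest in their labelled type. The exceptions with fewest were monocytes (1 of 5 markers) and cancer cells (0 of 4). Of the 70289 barcode triplets, 12.4% occurred in more than 1 sublibrary, and 0 full cell names were repeated.

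High levels were spread over many cells. After thinning each cell to 1000 transcripts and leaving out shallower cells (433 to 1924 per sample), the share of cells with an Hspa1a or Hspa1b transcript was lowest in vehicle-PDAC 2, at 1.25% (95% Clopper-Pearson interval 1.01 to 1.52), and highest in 6-OHDA 3, at 33.9% (32.2 to 35.7). It averaged 5.06% ± 4.70 (SD, n = 3) in vehicle, 17.4% ± 15.1 (n = 3) in 6-OHDA, 14.1% ± 7.71 (n = 3) in BIBO3304, 1.37% ± 0.180 (n = 2) in vehicle-PDAC, 17.4% ± 4.13 (n = 2) in 6-OHDA-PDAC and 8.87% ± 1.998 (n = 2) in BIBO3304-PDAC. Without thinning, the shares were 2.99% in vehicle-PDAC 2 and 49.1% in 6-OHDA 3, at median depths of 2411 and 2123 transcripts per cell. The intervals cover counting error only.

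Cell types differed in these shares within the same sample. In 6-OHDA 3, 56.7% (53.0 to 60.3) of alveolar fibroblasts had such a transcript after thinning, against 18.8% (15.9 to 21.9) of alveolar macrophages and 41.1% (29.7 to 53.2) of aerocytes, the capillary cells of gas exchange. In vehicle 2 the shares were 3.70% (2.31 to 5.61) of fibroblasts, 0.866% (0.522 to 1.35) of macrophages and 0 of 48 aerocytes, which allows a share of up to 7.40%. Hspa1a and Hspa1b can be switched on in any cell type, so no type gives a background level of free RNA, and its part in the low shares was not tested. Over all cells, 804 cells (the top 1%) held 26.8% of all Hspa1a and Hspa1b transcripts and 12.499% of those of the constitutive members.

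Treatment was first compared without PDAC cells. For 6-OHDA against vehicle, 4 of 158 tests of a member in a type passed a Benjamini-Hochberg adjusted p of 0.05 in edgeR's quasi-likelihood test, all of them higher, where 0.0669% of tests of all genes passed. The 4 were Hspa1b and Hsph1 in lymphatic endothelial and mesothelial cells. In lymphatic endothelial cells Hspa1b stood at 8.08, 0 and 133 CPM in vehicle (1, 0 and 9 transcripts) and 599, 19.7 and 1527 CPM in 6-OHDA (27, 1 and 60 transcripts), a log2 difference of 3.86 ± 0.739 (SE, adjusted p = 0.0092). The groups overlapped, since 6-OHDA 2 was below vehicle 3. In mesothelial cells Hsph1 stood at 71.1, 26.1 and 103 CPM in vehicle and 212, 165 and 743 CPM in 6-OHDA, without overlap (log2 difference 2.31 ± 0.472, adjusted p = 0.0392). Without 6-OHDA 3, the Hspa1b difference in lymphatic endothelial cells was 2.66 (adjusted p = 0.501), and without vehicle 3 it was 6.42 (adjusted p = 0.00136).

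The other tests had the same sign more often than they passed. The log2 difference was positive in 148 of 158 tests, and unadjusted p was under 0.05 in 62. For all genes these counts were 55748 and 8769 of 113537 tests. Tests of different members and types in a comparison use the same samples, so their signs are not independent. The median was 1.21 for the inducible members (73 tests), 0.45 for the constitutive ones (85 tests) and -0.01 for all genes. Hspa1b had a median of 2.13 over 17 types, Hspa1a 1.46 over 14, Hsph1 1.45 over 19, Hspb1 0.85 over 6 and Dnajb1 0.70 over 17. The constitutive members had medians of 0.58 (Dnaja1), 0.57 (Hspd1), 0.43 (Hspa8), 0.35 (Hsp90aa1) and 0.35 (Hspe1). Neither Hspa1b in smooth muscle cells and pericytes (111, 141 and 245.5 CPM against 274, 402 and 1597 CPM, adjusted p = 0.0723) nor Hsph1 in T cells (22.5, 18.0 and 56.2 CPM against 104, 55.5 and 271 CPM, adjusted p = 0.742) passed. The count of 4 calls became 0 without 6-OHDA 3, vehicle 1 or vehicle 2 and 2 without 6-OHDA-PDAC 1, and the median log2 ratio of the inducible sum over 19 types went from 1.50 to 0.62 without 6-OHDA 3, an alternative chosen after seeing the data.

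For BIBO3304 against vehicle without PDAC cells, 1 of 158 tests passed, where 0.307% of tests of all genes did. Hsph1 in T cells stood at 22.5, 18.0 and 56.2 CPM in vehicle and 89.5, 220.4 and 241 CPM in BIBO3304, a log2 difference of 2.47 ± 0.458 (adjusted p = 0.0472). All 3 BIBO3304 samples were above all 3 vehicle samples. The inducible members had a median log2 difference of 1.17 and were positive in 69 of 73 tests, while the constitutive ones had a median of 0.12 and were positive in 57 of 85. Hsph1 was positive in 19 of 19 types with a median of 1.51, and Hspa1b in 17 of 17 with 1.50. Hspa8, in contrast, had a median of 0.06 and Hspe1 of -0.13, positive in 2 of 12 types. Dnajb1 in interstitial macrophages (18.8, 12.1 and 21.3 CPM against 26.5, 150.5 and 74.8 CPM, adjusted p = 0.0733) and Hspb1 in adventitial fibroblasts (1.70, 5.25 and 4.48 CPM against 9.02, 28.5 and 13.6 CPM, adjusted p = 0.0999) did not pass. The single call was lost without vehicle 1, vehicle 2, 6-OHDA 1, BIBO3304 2 or BIBO3304-PDAC 1, and 2 or 3 calls were made without vehicle 3, 6-OHDA 2, BIBO3304 1, vehicle-PDAC 1 or vehicle-PDAC 2.

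The same treatments were then compared among samples with PDAC cells. For 6-OHDA-PDAC against vehicle-PDAC, 8 of 144 tests passed, all of them higher, where 0.405% of tests of all genes passed. Of these, 5 were of Hspa1a or Hspa1b, in dendritic cells, aerocytes and interstitial macrophages. The other 3 were of Hspa8 and Hsp90aa1 in dendritic cells and Hspe1 in interstitial macrophages. In dendritic cells Hspa1b stood at 7.23 and 11.5 CPM in vehicle-PDAC and 172 and 164 CPM in 6-OHDA-PDAC (log2 difference 4.16 ± 0.848, adjusted p = 0.0081). Hsp90aa1 there stood at 80.7 and 88.9 CPM against 258 and 238 CPM (1.54 ± 0.315, adjusted p = 0.0081), and Hspa8 at 147 and 258.5 CPM against 426 and 643 CPM (1.42 ± 0.383, adjusted p = 0.0449). The rise in dendritic cells thus took in 3 members of the HSP70 and HSP90 families besides Hspa1a, which stood at 6.02 and 0 CPM (5 and 0 transcripts) against 86.1 and 52.5 CPM (4.18 ± 0.912, adjusted p = 0.0118).

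In aerocytes, Hspa1b stood at 29.7 and 15.4 CPM in vehicle-PDAC and 374 and 374 CPM in 6-OHDA-PDAC (log2 difference 3.91 ± 0.745, adjusted p = 0.0189). Hspa1a there stood at 13.5 and 0 CPM (5 and 0 transcripts) against 101.5 and 168 CPM (3.89 ± 0.803, adjusted p = 0.0434). In interstitial macrophages, Hspa1b stood at 2.95 and 2.92 CPM (3 and 2 transcripts) against 72.0 and 80.4 CPM (4.61 ± 1.15, adjusted p = 0.0246). Hspe1, the mitochondrial HSP10, stood there at 9.84 and 14.6 CPM against 39.8 and 42.9 CPM (1.78 ± 0.378, adjusted p = 0.0091). Hsph1 in large-vessel endothelial cells, at 11.015 and 8.74 CPM against 175 and 135 CPM, had an adjusted p of 0.0655 and Hspa8 there one of 0.107.

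The log2 difference was positive in 140 of 144 tests, with a median of 2.16 for the inducible and 0.87 for the constitutive members and -0.01 for all genes, and unadjusted p was under 0.05 in 92. For all genes, unadjusted p was under 0.05 in 8035 of 107528 tests. In sums over all cells, 2 members passed where 3.67% of 17481 genes did: Hspa1a (5.01 and 5.59 CPM against 59.8 and 78.0 CPM, log2 difference 3.70, adjusted p = 0.039) and Dnaja1 (78.2 and 78.6 CPM against 169 and 187 CPM, 1.18, adjusted p = 0.044). Hspa1b, at 6.72 and 11.1 CPM against 122 and 167 CPM, had a log2 difference of 4.03 and an adjusted p of 0.0700. The count of 8 calls by type became 1 without vehicle-PDAC 1, 2 without 6-OHDA-PDAC 2 and 4 without 6-OHDA-PDAC 1. It rose without vehicle 3, 6-OHDA 2, 6-OHDA 3 or BIBO3304 2, none of which is in the groups compared. Fits with a sample left out also took types with 1 sample in a group, so their counts are not over the same 144 tests.

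For BIBO3304-PDAC against vehicle-PDAC, 2 of 158 tests passed, where 0.0317% of tests of all genes did. Hspa8 in large-vessel endothelial cells stood at 171.5 and 213 CPM in vehicle-PDAC and 743.5 and 509 CPM in BIBO3304-PDAC (log2 difference 1.74 ± 0.296, adjusted p = 0.0119). Hspe1 in interstitial macrophages stood at 9.84 and 14.6 CPM against 58.0 and 47.8 CPM (2.12 ± 0.388, adjusted p = 0.0138). The signs were shared by nearly all tests: 156 of 158 were positive, and unadjusted p was under 0.05 in 109. For all genes these counts were 57162 and 8806 of 113537 tests. The member tests use the same samples in every type, so their shared sign is not a set of independent results. The medians were 2.08 for the inducible and 1.16 for the constitutive members, with Hspa1b at 3.09, Hspa1a at 2.61, Hsph1 at 2.29 and Hspa8 at 1.58. Hspa8 in aerocytes (248 and 283 CPM against 733 and 767.5 CPM, adjusted p = 0.0535), monocytes (adjusted p = 0.0767), B cells (0.0787) and lymphatic endothelial cells (0.116) did not pass. In sums over all cells, 0% of genes passed. The smallest adjusted p of a member was 0.384, 9 of 10 members had an unadjusted p under 0.05, and DESeq2 called 2. The count of 2 calls became 0 without vehicle-PDAC 1 and 5 to 10 without any 1 of the other samples except BIBO3304-PDAC 1. Both treated groups were compared with the same 2 vehicle-PDAC samples, which held some of the lowest levels of the study, so that these comparisons are not independent.

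Seeding of PDAC cells was compared within each treatment. Under vehicle, 0 of 158 member tests passed in edgeR and 0 in DESeq2, where 0.00176% of tests of all genes passed (2 of 113537), and unadjusted p was under 0.05 in 51. For all genes, unadjusted p was under 0.05 in 5571 of the 113537 tests. The members' sign was mostly negative, in 143 tests, with a median log2 difference of -1.20 for the inducible, -0.49 for the constitutive members and -0.0024 for all genes. Hspa1a in aerocytes stood at 89.6, 21.4 and 236 CPM in vehicle and 13.5 and 0 CPM in vehicle-PDAC (log2 difference -3.87 ± 0.750, adjusted p = 0.0737). Hspa1b there stood at 134, 0 and 486.5 CPM against 29.7 and 15.4 CPM, with an adjusted p of 0.2515 and overlapping groups. The count became 2 without vehicle 2 and 1 without 6-OHDA 2, BIBO3304 1, vehicle-PDAC 2 or 6-OHDA-PDAC 2. Without vehicle 3, an alternative chosen after seeing the data, the median log2 ratio of the inducible sum over types went from -1.04 to -0.30, and the sum was higher in vehicle-PDAC in 3 of 19 types against 0 of 19.

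Under 6-OHDA, 0 of 144 member tests passed in edgeR and 0 in DESeq2, where 0.729% of tests of all genes passed, and unadjusted p was under 0.05 in 10. For all genes it was under 0.05 in 8441 of 107528 tests, a similar share. The median log2 difference was -0.30 for the inducible and -0.01 for the constitutive members. The smallest p was that of Dnaja1 in ciliated cells, at 290.0, 231 and 497 CPM without and 125 and 182 CPM with PDAC cells (log2 difference -1.25 ± 0.386, adjusted p = 0.892). Over all cells, Hspd1 stood at 54.1, 50.8 and 86.8 CPM without and 123 and 111 CPM with PDAC cells, a log2 difference of 0.87 with an adjusted p of 0.0502, where 3.16% of genes passed. With the annotated cancer cells left out of the sums, its log2 difference was 0.15 (adjusted p = 0.91), and over the tested types its median was 0.03. The count by type became 1 without 6-OHDA 3.

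Under BIBO3304, 8 of 158 member tests passed, 7 higher and 1 lower, where 4.25% of tests of all genes passed, so the members' share was close to the background. All 7 higher calls were of constitutive members. In B cells Hspa8 stood at 169, 181 and 298 CPM without and 548 and 554 CPM with PDAC cells (log2 difference 1.36 ± 0.269, adjusted p = 0.0086), and Dnaja1 at 47.6, 68.7 and 112.5 CPM against 180.03 and 161 CPM (1.17 ± 0.313, adjusted p = 0.0287). Hspe1 was higher in B cells, interstitial macrophages, general capillary cells and monocytes, by 1.42 to 1.74 on the log2 scale. In interstitial macrophages, for example, Hspe1 stood at 13.2, 21.1 and 21.0 CPM without (5, 8 and 9 transcripts) and 58.0 and 47.8 CPM with PDAC cells (1.49 ± 0.363, adjusted p = 0.0075). Hspa8 in monocytes, at 248, 284 and 436 CPM against 749 and 429 CPM, had the smallest difference of the 7 (0.87 ± 0.269, adjusted p = 0.0437). The lower call was Dnajb1 in interstitial macrophages, at 26.5, 150.5 and 74.8 CPM against 29.8 and 18.1 CPM (-1.85 ± 0.513, adjusted p = 0.0169), where the groups overlapped.

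The median log2 differences under BIBO3304 had opposite signs, at -0.38 for the inducible and 0.39 for the constitutive members, beside -0.0056 for all genes. Over all cells, Hspd1 (45.1, 58.7 and 72.0 CPM against 87.7 and 101 CPM, log2 difference 0.69, adjusted p = 0.037) and Hspe1 (17.5, 17.2 and 23.2 CPM against 38.9 and 52.0 CPM, 1.23, adjusted p = 0.016) passed, where 24.7% of genes did. Annotated cancer cells, 33 and 73 of them in the BIBO3304-PDAC samples, are part of these sums and held Hspd1 at 329.6 and 333 CPM and Hspe1 at 106 and 161 CPM. Without them, Hspd1 had a log2 difference of 0.37 (adjusted p = 0.242) and no longer passed, and Hspe1 one of 0.98 (adjusted p = 0.0482). The count of 8 calls by type became 0 without BIBO3304-PDAC 2, 1 without BIBO3304 2, 3 without BIBO3304 1 and 4 without BIBO3304-PDAC 1. In sums over all cells, 0.00572% of genes passed for 6-OHDA against vehicle, 15.6% for BIBO3304 against vehicle, 0% for BIBO3304-PDAC against vehicle-PDAC and 0% for vehicle-PDAC against vehicle. No member passed in these 4 comparisons by edgeR, where 7, 4, 9 and 2 of the 10 members had an unadjusted p under 0.05 and DESeq2 called 0, 1, 2 and 0. Over the 7 comparisons edgeR made 4 calls in such sums, and 3 without the annotated cancer cells. That count became 1 without BIBO3304 2, 6-OHDA-PDAC 1 or 6-OHDA-PDAC 2, 2 without 6-OHDA 1, 7 without vehicle 3 or 6-OHDA 2, and 9 without 6-OHDA 3.

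Whether a drug's difference from vehicle itself differed with PDAC cells was tested as an interaction. For 6-OHDA, 0 of 144 member tests passed in edgeR and 0 in DESeq2, where 0.00744% of tests of all genes passed, and unadjusted p was under 0.05 in 21. For all genes, unadjusted p was under 0.05 in 5502 of 107528 tests. The members' count of 0 became 1 without vehicle-PDAC 2. For BIBO3304, 4 of 158 passed, where 0.413% of tests of all genes did. They were Hspa8 (log2 difference of differences 1.98 ± 0.398, adjusted p = 0.0288), Dnaja1 (1.81 ± 0.462, 0.0476) and Hspe1 (2.77 ± 0.643, 0.036) in B cells and Hspe1 in interstitial macrophages (2.53 ± 0.560, 0.0328). In B cells, Hspa8 stood at 237.5, 248.6 and 272 CPM in vehicle and 169, 181 and 298 CPM in BIBO3304, which overlapped. With PDAC cells it stood at 105 and 218 CPM under vehicle and 548 and 554 CPM under BIBO3304, without overlap. The count became 0 without vehicle 2, BIBO3304 1, BIBO3304 2, vehicle-PDAC 1 or BIBO3304-PDAC 2, 1 or 2 without vehicle 1, vehicle 3, 6-OHDA-PDAC 1 or BIBO3304-PDAC 1, and 11 without vehicle-PDAC 2.

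**Figure D4:**
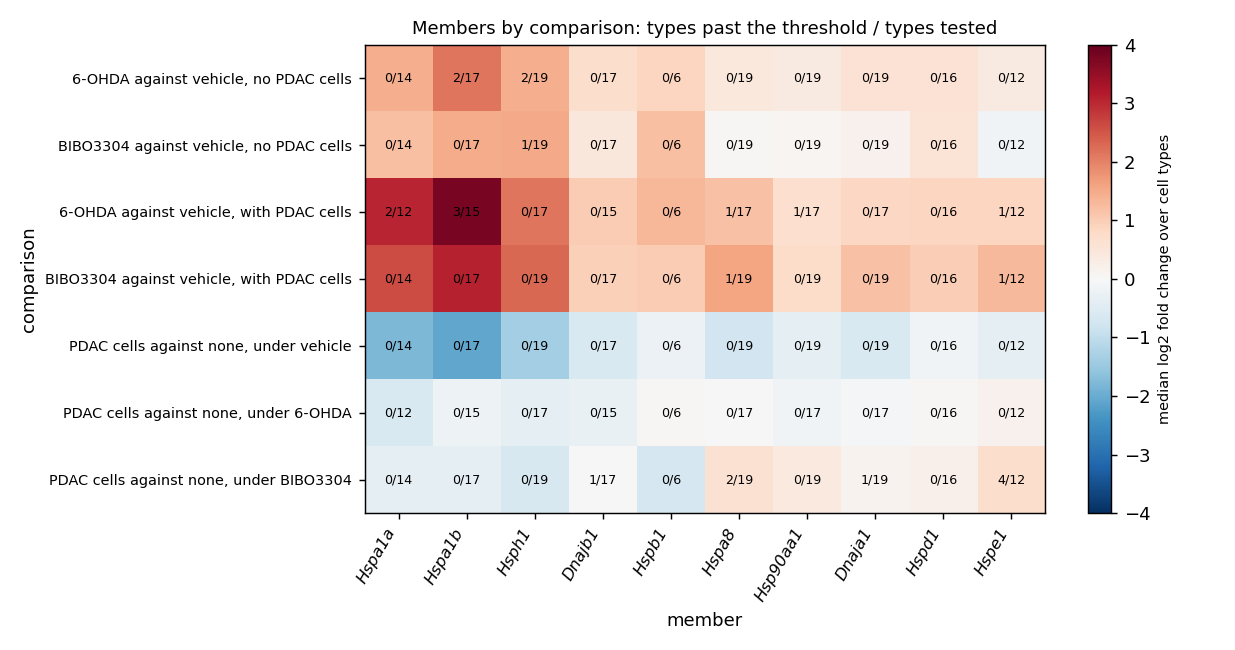
Median log2 fold change over cell types (colour) of each member (horizontal) in each of 7 comparisons (vertical), with the number of types past the threshold over the number tested in each cell. Hspa1a, Hspa1b and Hsph1 have the largest medians of the 10 members for both drugs with PDAC cells, up to 3.80 for Hspa1b under 6-OHDA with 3 of 15 types past the threshold, and all 3 have negative medians for PDAC cells under vehicle, where 0 tests passed.

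Levels were then ordered over the 19 tested types, which leave out the cancer cells. The CPM totals cover the genes kept by the filter in each type, and the part of this in the order was not tested. Averaged over samples, the inducible sum was highest in alveolar fibroblasts, at 905 ± 660 CPM (SD, n = 15), followed by lymphatic endothelial cells, at 790.4 ± 974 CPM (n = 14), and lowest in alveolar macrophages, at 97.6 ± 70.005 CPM (n = 15). Alveolar type 2 cells, at 162 CPM, were below dendritic cells (258 CPM) and NK cells (254 CPM). The constitutive sum was highest in ciliated cells, at 1767 ± 575 CPM (n = 15), and lowest in B cells, at 650.5 ± 243 CPM (n = 15). Since levels moved so much between samples, types were compared in pairs within samples. Such pairing does not remove the difference in kept genes between types.

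Among the inducible members, Hspa1a was highest in smooth muscle cells and pericytes (140.5 CPM), aerocytes (138 CPM), alveolar fibroblasts (122 CPM) and mesothelial cells (115 CPM), and lowest in T cells (3.50 CPM). Hspa1b was highest in lymphatic endothelial cells (295 CPM) and smooth muscle cells and pericytes (277 CPM) and lowest in T cells (16.9 CPM). Hsph1 and Dnajb1 were high in ciliated cells too, with Hsph1 at 416 CPM there, against 36.7 CPM in alveolar type 2 cells, and Dnajb1 at 158 CPM, below alveolar fibroblasts at 252 CPM. Hspb1 ran from 54.9 CPM in aerocytes to 0.561 CPM in monocytes. Ciliated cells ranked 1 of 19 types for Hsph1 and 2 for Dnajb1, but 15 for both Hspa1a and Hspa1b.

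Among the constitutive members, Hsp90aa1 had the steepest top: ciliated cells held 862 ± 235 CPM (n = 15) and the next type, smooth muscle cells and pericytes, 347 ± 113 CPM (n = 15). The paired log2 difference was 1.33, in the same direction in 15 of 15 samples (2-sided exact permutation test, adjusted p = 0.011). Hspd1 and Hspe1 were highest in ciliated cells (107 and 53.8 CPM) and NK cells (99.9 and 46.7 CPM), Dnaja1 in aerocytes (301.5 CPM) and Hspa8 in lymphatic endothelial cells (767 CPM). The lowest levels were those of Hspd1 in monocytes (40.5 CPM), Hspe1 in large-vessel endothelial cells (17.3 CPM), Dnaja1 in alveolar macrophages (69.9 CPM) and Hspa8 in T cells (294 CPM). Of 180 pairs of neighbours in the 10 orders, 2 passed the exact test after adjustment over all pairs: Hsp90aa1 above, and Dnajb1 in adventitial fibroblasts (146 ± 52.04 CPM, n = 15) over lymphatic endothelial cells (74.8 ± 52.5 CPM, n = 14; higher in 13 of 14 samples, exact permutation test, adjusted p = 0.033). The other neighbours did not pass, which does not show that their levels were equal.

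The 4 deposited classes of blood cell, endothelial cell, epithelial cell and fibroblast were compared pairwise too, a comparison added after seeing the data. Of 60 pairs, 51 passed a 2-sided exact permutation test within samples after adjustment, among them 28 of 30 pairs of inducible members. Dnajb1 stood at 226 ± 128 CPM in fibroblasts, 56.5 ± 28.3 CPM in epithelial cells, 47.9 ± 22.1 CPM in endothelial cells and 21.7 ± 8.28 CPM in blood cells (SD, n = 15 each), and was lower in blood cells than in fibroblasts in 15 of 15 samples (exact permutation p = 6.1e-05, the smallest the design allows, adjusted p = 0.000126). Hspb1 stood at 43.2 CPM in fibroblasts and 26.0 CPM in endothelial cells, against 0.799 CPM in blood cells. For Hspa8 the classes were closer, at 603 CPM in fibroblasts, 519.6 CPM in blood cells, 433 CPM in endothelial and 421 CPM in epithelial cells, and endothelial and epithelial cells did not pass (adjusted p = 0.241). Hspd1 was highest in blood cells, at 64.3 CPM against 50.9 CPM in endothelial cells (higher in 13 of 15 samples, exact permutation test, adjusted p = 0.00183).

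**Figure D5:**
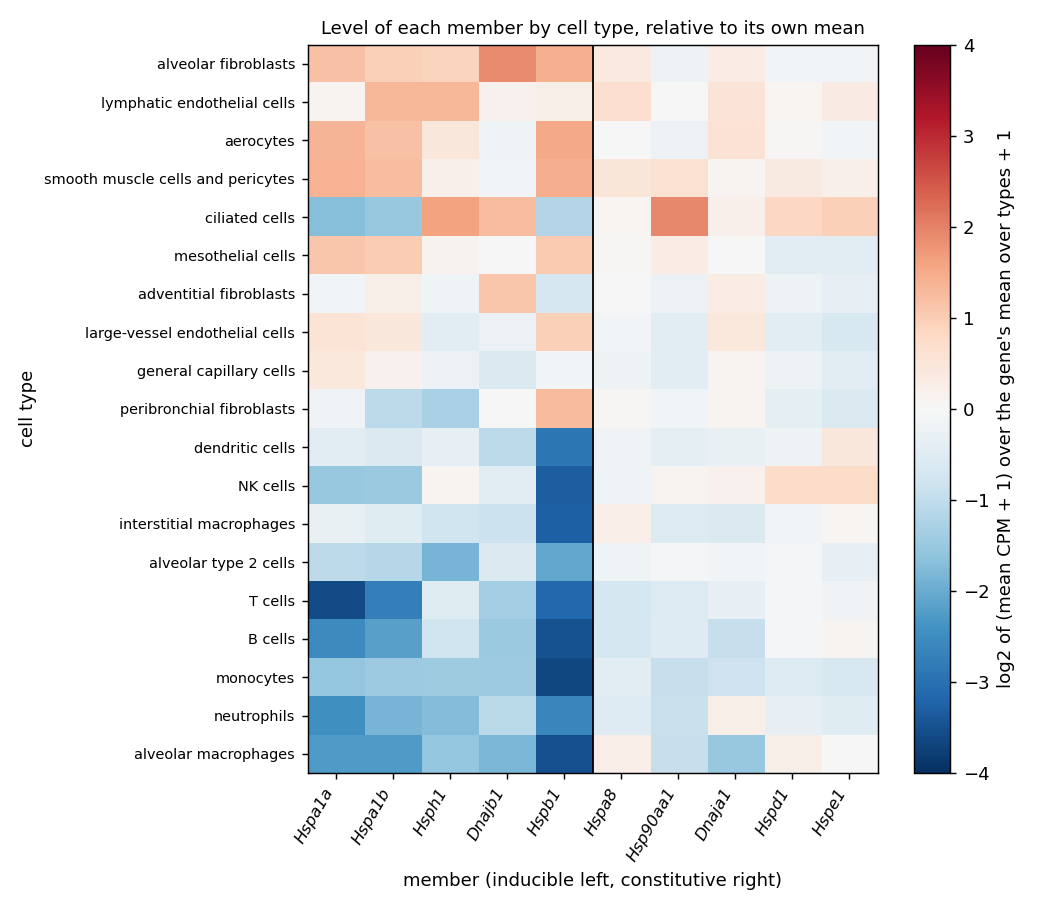
Level of each member (horizontal, inducible left of the line) in each of 19 cell types (vertical), as log2 of its mean CPM + 1 over the member's own mean across types + 1. The CPM totals cover the genes kept by the filter in each type. The inducible members range over more colours than the constitutive ones, with Hspb1 lowest in monocytes at 0.561 CPM and Hsp90aa1 highest in ciliated cells at 862 CPM.

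Annotated cancer cells numbered at least 20 in 5 samples, of which 1 was vehicle-PDAC, and entered none of the comparisons by type. Their inducible sum was 217 CPM in vehicle-PDAC 1, 319.9 and 454 CPM in 6-OHDA-PDAC and 351 and 267 CPM in BIBO3304-PDAC. Hspa1a and Hspa1b together were at 2.59 CPM in vehicle-PDAC 1, 53.6 and 106 CPM in 6-OHDA-PDAC and 69.6 and 65.7 CPM in BIBO3304-PDAC. Vehicle-PDAC 1, the only vehicle sample with enough of these cells, was the lowest of the 5 in both sums; the difference was not tested. Hspd1 stood at 435 CPM in vehicle-PDAC 1, 419 and 416 CPM in 6-OHDA-PDAC and 329.6 and 333 CPM in BIBO3304-PDAC, and Hspe1 at 117, 110.3, 108, 106 and 161 CPM in that order. For both genes, each of these levels was above the mean of ciliated cells, the highest of the 19 tested types. CPM of cancer cells use unscaled totals of all genes, while those of the 19 types use TMM-scaled totals of the genes kept by the filter. The 312 cancer cells held 17045 of the 247202 constitutive transcripts.

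Genes that varied over samples most like the inducible members were sought within types. For each of 8314 genes, Pearson's r over the 15 samples with the mean log2 level of the inducible members was taken within each of 17 types with at least 20 cells in every sample, and its median over types was used. A gene was used in the types where it was measured, 5 to 17 for the genes named here. These points share libraries and depth, and the r values are a description. The constitutive members ranked from 7 to 31 of 8314, with median r from 0.758 (Hspa8) down to 0.501 (Hspe1), while the inducible members, which are part of the mean itself, took ranks 1 to 5. The 10 non-members ranked highest were Chordc1 (0.772), 1110038B12Rik (0.755), Stip1 (0.7299), P4ha1 (0.679), Ahsa2 (0.674), Gm15459 (0.673), Dnaja4 (0.647), Ahsa1 (0.641), P4ha2 (0.641) and Hsp90ab1 (0.625). Several encode partners of HSP90 and HSP70: Chordc1, Stip1, Ahsa1 and Ahsa2 encode HSP90 cochaperones, Dnaja4 an HSP40, and Hsp90ab1 the other cytosolic HSP90. P4ha1 and P4ha2 encode subunits of the collagen prolyl 4-hydroxylase of the endoplasmic reticulum. Gm15459 is a pseudogene that holds 34.6% of the 50-base stretches of Hspa8, so reads of this pair may not be fully separable. 1110038B12Rik is a neighbour of Hspa1b in RefSeq, 3957 bases away, and was not among the genes that share 50-base stretches with it. Of the 8 of these 10 genes with a RefSeq promoter, 2 held a heat shock element of 2 units.

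Other stress and chaperone genes were followed through 5 lists. Their summed levels over all cells moved little beside the inducible members, whose sum differed 13.9-fold between the highest and lowest sample. The ratio was 1.44-fold for 36 other cytosolic chaperones and cochaperones, 1.82-fold for the 8 subunits of the TRiC chaperonin, 1.54-fold for 6 mitochondrial chaperones, 1.71-fold for 20 genes of endoplasmic reticulum chaperones and the unfolded protein response, and 1.39-fold for 18 immediate early genes known to rise in dissociation. A sum follows its most abundant genes and does not give the range of single genes. Chordc1, Stip1, Dnaja4, Ahsa1 and Hsp90ab1, named above, are among the 36 genes of the cytosolic list. The immediate early sum was highest in vehicle 2, at 6828 CPM, and lowest in BIBO3304 2, at 4929 CPM, which is not the order of the inducible members. Median r over a list's genes was 0.269 for TRiC, 0.139 for the cytosolic list, 0.1245 for the endoplasmic reticulum, 0.0997 for the mitochondrial list and -0.118 for the immediate early genes, beside -0.0088 for all genes. Within the cytosolic list, single genes ran from -0.2305 (Sqstm1) to 0.772 (Chordc1). Hsf1 itself had a median r of -0.21 and Hsf2 of -0.08.

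The lists were tested in the same fits. For 6-OHDA without PDAC cells, where 0.0669% of tests of all genes passed, 1 of 339 tests of immediate early genes did (Klf6 in general capillary cells, log2 difference 0.88, adjusted p = 0.0389), and the list's median was -0.22. For BIBO3304 without PDAC cells, where 0.307% of all tests passed, 91 of them higher and 258 lower, 12 of 339 did, all lower, such as Jund in B cells (-1.54) and Fosb in aerocytes (-1.08). Of the endoplasmic reticulum list 4 of 289 passed, all lower, such as Atf4, a transcription factor of the unfolded protein response, in B cells (-1.43). For 6-OHDA-PDAC, where 0.405% of all tests passed, 3 of 303 immediate early tests did, all lower (Socs3 in interstitial macrophages -1.27, Nr4a1 in dendritic cells -1.17 and Fosb in interstitial macrophages -0.97). Sqstm1 in interstitial macrophages (-1.11) was the 1 of 426 tests of the cytosolic list that passed. Both of these cell types also had members that were higher. For BIBO3304-PDAC, where 0.0317% of all tests passed, no test of these lists did in edgeR, and unadjusted p was under 0.05 in 75 of 460 cytosolic, 61 of 289 endoplasmic reticulum, 33 of 339 immediate early, 19 of 117 TRiC and 0 of 51 mitochondrial tests. The list medians were 0.32, 0.41, 0.08, 0.42 and 0.06 in that order. For all genes, unadjusted p was under 0.05 in 8806 of 113537 tests of this comparison.

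With PDAC cells under BIBO3304, 4.25% of 113537 tests of all genes passed, 2768 of them higher and 2062 lower. There 46 of 289 tests of the endoplasmic reticulum list were higher and 0 lower, 12 of 460 cytosolic tests were higher and 2 lower, 7 of 117 TRiC tests were higher, and 31 of 339 immediate early tests were higher and 14 lower. Creld2 in interstitial macrophages was higher by 1.98 (adjusted p = 0.00307) and Bag3, an HSP70 cochaperone, in B cells by 1.92 (adjusted p = 0.0264), while Socs3 in interstitial macrophages was lower (-1.955, adjusted p = 0.000156). Under 6-OHDA, where 0.729% of all tests passed, 4 of 267 endoplasmic reticulum tests were higher, among them Dnajb11 (1.56) and Hyou1 (1.39) in interstitial macrophages, and 7 immediate early tests were lower, among them Egr1 (-1.30) and Atf3 (-1.295) there. In the interaction of BIBO3304 with PDAC cells, where 0.413% of all tests passed, Fkbp5 in neutrophils (3.08), Atf4 (1.99) and Jund (1.94) in B cells and Socs3 in interstitial macrophages (-1.58) did. In B cells, Atf4, Jund, Hspa8, Dnaja1 and Hspe1 thus had interactions of the same sign.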

How the data were processed

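Lung cells were profiled with Parse Evercode WT v3, a split-pool barcoding method, in 16 sublibraries that each hold cells of all 15 samples. The authors deposited raw transcript counts per gene and cell, with a table of cells that gives sample, treatment, cell type and, per the file headers, the percent of mitochondrial transcripts. Per the submitters' processing notes, Seurat 5.3.0 was used with the mouse build mm39, while aligner, counter, cell filters and doublet treatment are not stated. The deposited annotation was used as it stands, and no further cells were removed. The deposited transcript total equalled the summed counts for 99.04% of cells.

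Counts were summed per sample and deposited cell type (at least 20 cells, at least 2 samples per group) and over all cells. edgeR 4.0.16 in R 4.3.3 was run over all genes on the 6 groups together (filterByExpr, TMM scaling, quasi-likelihood test), with Benjamini-Hochberg adjustment within a type and comparison and a threshold of 0.05. It was first tested on simulated data with known changes. CPM use TMM-scaled totals of the genes kept by the filter, and unscaled totals of all genes for wells, sublibraries, classes and cancer cells. The members and lists, and the rule for the values named (per comparison, the 6 member and type pairs with the smallest p and those past the threshold, and up to 4 list genes past it with at least 20 CPM), were chosen with earlier results of these data known. Depth ran from 10003796 to 32580698 transcripts per sample. DESeq2 1.42.0, other scalings and filters, fewer cells and left-out samples were tried as alternatives. Fits with a sample left out did not need 2 samples per group, so their counts of calls can cover types that the main fit left out.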

Additional observations from a re-analysis of the deposited data

Results flagged for a closer look

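Of the results here, 4 came from a test of whether the BIBO3304 difference itself differed between samples with and without PDAC cells. In B cells the log2 difference of differences was 1.98 for Hspa8, 1.81 for Dnaja1 and 2.77 for Hspe1, and in interstitial macrophages it was 2.53 for Hspe1 (edgeR's quasi-likelihood test, adjusted p from 0.0288 to 0.0476). All 4 are constitutive members. Dnaja1 in B cells stood at 84.3, 118 and 96.7 CPM in vehicle, 47.6, 68.7 and 112.5 CPM in BIBO3304, 52.6 and 75.6 CPM in vehicle-PDAC and 180.03 and 161 CPM in BIBO3304-PDAC. Hspe1 in B cells stood at 30.6, 30.3 and 41.4 CPM, 26.5, 16.7 and 21.3 CPM, 9.29 and 15.6 CPM, and 56.0 and 58.7 CPM in the same order of groups. Its counts were low, at 8, 19 and 9, 10, 8 and 7, 3 and 7, and 14 and 23 transcripts. Hspe1 in interstitial macrophages stood at 28.2, 27.2 and 18.6 CPM, 13.2, 21.1 and 21.0 CPM, 9.84 and 14.6 CPM, and 58.0 and 47.8 CPM. There the counts were 12, 9 and 7, 5, 8 and 9, 10 and 10, and 35 and 50 transcripts. In all 3 of these pairs, both vehicle-PDAC samples were below both BIBO3304-PDAC samples, which picking them by this test makes likely. The constitutive sum was separated in the same direction in 19 of 19 types, so this is not particular to these pairs.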

How the results depend on the processing

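Counts of member calls changed with the setting. For 6-OHDA without PDAC cells the 4 calls became 33 with no filter on low counts, 0 with at least 50 cells, 1 without the deepest 5% of cells, 0 with the compared groups only and 0 with DESeq2 (0 to 5 with 1 sample left out). For BIBO3304 without PDAC cells the 1 call became 0 with RLE size factors, 37 with no filter, 2 without the deepest cells, 4 with the compared groups only and 0 with DESeq2 (0 to 3). For 6-OHDA-PDAC the 8 became 55 with no filter and 28 with the compared groups only (1 to 19). For BIBO3304-PDAC the 2 became 64 with no filter, 6 without the deepest cells, 13 with the compared groups only and 16 with DESeq2 (0 to 10). For PDAC cells the counts with no filter were 23 under vehicle (0 to 2), 3 under 6-OHDA (0 to 1) and 19 under BIBO3304 (0 to 8), and DESeq2 gave 5 under BIBO3304. The interaction counts with no filter were 9 for 6-OHDA (0 to 1) and 18 for BIBO3304 (0 to 11), the latter 0 with the compared groups only. The 4 calls over all cells became 12 with DESeq2 (1 to 9). Samples with the same number did not deviate together (median r -0.015 over 33 pairs, from -0.264 to 0.381). They share only a number, and with the replicate block the counts were 3 for BIBO3304, 24 for 6-OHDA-PDAC, 15 for BIBO3304-PDAC, 1 and 18 for PDAC cells under 6-OHDA and BIBO3304, and 18 over all cells. The ratio of inducible to constitutive members in 6-OHDA-PDAC was 0.476 without Hspd1 and Hspe1 and 0.344 as a median over types. Thinned to 500 and 2000 transcripts, the share of cells with an Hspa1a or Hspa1b transcript was 0.815% and 2.13% in vehicle-PDAC, 11.3% and 25.1% in 6-OHDA-PDAC and 5.70% and 13.4% in BIBO3304-PDAC. Of 31 called differences none reversed in 675 values from other settings and left-out samples, 188 of which were no longer past the threshold, and each of the 31 lost its call with at least 1 sample left out. The cause of these changes was not tested. With 2 or 3 samples per group and few cells in rare types, differences in single types had wide errors.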
